A study of Homo sapiens with 4 samples.

Results

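The clustered histone genes of chromosome 6 were taken as all protein-coding genes of GENCODE release 44 between 26 and 28 Mb of chromosome 6 (GRCh38) whose symbols start with H1-, H2AC, H2BC, H3C or H4C. There were 53 such genes of 20020 protein-coding gene symbols. RNAPII-linked DNA loops had been mapped by POLR2A HiChIP-seq in HepG2, a human hepatocellular carcinoma cell line. HiChIP-seq cuts and ligates crosslinked chromatin, enriches it with an antibody, here against the largest subunit of RNAPII, and reads the ligated ends as paired-end tags (PETs), so that a loop is a pair of regions, its anchors, joined by PETs. Cells were mock-treated (water, no other agent) or treated with 20 µM PDS (pyridostatin, a small molecule that binds G-quadruplex DNA, G4) for 24 h, with 2 replicates for each condition, and the 2 replicates were deposited as 1 combined loop list per condition. A loop was assigned to a histone gene when an anchor lay within 1 kb of a start site of any of its transcripts, which gave 47 loops of the 77862 in either list. The choice of these loops used gene positions and not their PETs.

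Because each condition has a single combined list, replicate error could not be measured, no p-values were computed, and differences between conditions or between groups of loops were not tested. Ratios and shares carry 95% intervals that cover counting error only. Loops were listed from 3 PETs upwards. An unlisted loop could still have had up to 2 PETs, or more if listing followed other rules too, which are not known. Sequencing depth is unknown, and the lists differ in total: 254647 PETs in 66417 loops in mock-treated cells and 67001 PETs in 18778 loops after PDS treatment, a PDS/mock ratio of 0.283 (0.278 to 0.287) for loops. Fewer cells with a contact and fewer contacts per cell cannot be told apart in such libraries. The labelled cell type was checked by loops at marker promoters, which is a weak check because most genes had a mock loop. A mock loop was found at 11 of 12 hepatocyte genes (91.7%), beside 59.9% of all protein-coding genes. ALB, which encodes albumin, had 13 loops and 64 PETs.

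Replication-dependent histone genes encode the core histones H2A, H2B, H3 and H4 and the linker histone H1 that package newly copied DNA. They are transcribed by RNAPII mainly in S phase, carry hardly any introns, and their mRNAs end in a stem-loop rather than a poly(A) tail. Many of them lie side by side, often as divergent H2A and H2B pairs that share 1 promoter region, and their transcripts are made in a nuclear body, the histone locus body, that gathers around NPAT. RNAPII is therefore known to be concentrated at these genes in dividing cells.

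The 53 genes fell into 3 stretches, taken as runs with start sites under 200 kb apart. The stretch at chr6:26017032-26285638 holds 32 genes from H1-1 to H4C8, the one at chr6:27125897-27147562 holds 5 genes from H2BC11 to H2AC12, and the one at chr6:27807479-27893891 holds 16 genes from H2BC13 to H2BC17. The promoters at the anchors of the loops with the most PETs are shown here so that a reader can see what was joined: H4C11 and H4C12, which encode H4 and were joined by 10 PETs in mock-treated cells, and H2AC6 (H2A) and H1-4 (H1), whose anchors were joined by 9. Each line gives the 250 bases before the RefSeq start site (GRCh38.p14), 5′ to 3′ on the strand of the gene, with the box bound by NF-Y (CCAAT on either strand), the TATA box (TATAAA on either strand) and the octamer (ATTTGCAT on either strand) in capitals. The positions are chr6:27823842-27824091 (plus strand) for H4C11, chr6:27831561-27831810 (minus strand) for H4C12, chr6:26123922-26124171 (plus strand) for H2AC6 and chr6:26156079-26156328 (plus strand) for H1-4.
H4C11: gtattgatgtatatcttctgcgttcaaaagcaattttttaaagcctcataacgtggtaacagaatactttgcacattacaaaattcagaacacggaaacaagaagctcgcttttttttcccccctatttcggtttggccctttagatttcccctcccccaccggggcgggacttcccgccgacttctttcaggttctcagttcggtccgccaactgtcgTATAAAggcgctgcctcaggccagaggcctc
H4C12: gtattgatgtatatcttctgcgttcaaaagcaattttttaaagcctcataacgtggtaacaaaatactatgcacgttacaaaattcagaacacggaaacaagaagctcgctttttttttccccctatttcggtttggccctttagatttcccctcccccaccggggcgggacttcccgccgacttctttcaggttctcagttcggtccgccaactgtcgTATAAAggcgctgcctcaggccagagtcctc
H2AC6: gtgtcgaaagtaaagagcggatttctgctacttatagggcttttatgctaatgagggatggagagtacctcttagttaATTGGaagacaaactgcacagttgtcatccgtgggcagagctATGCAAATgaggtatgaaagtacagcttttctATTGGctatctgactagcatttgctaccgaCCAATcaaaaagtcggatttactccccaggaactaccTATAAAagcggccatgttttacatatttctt
H1-4: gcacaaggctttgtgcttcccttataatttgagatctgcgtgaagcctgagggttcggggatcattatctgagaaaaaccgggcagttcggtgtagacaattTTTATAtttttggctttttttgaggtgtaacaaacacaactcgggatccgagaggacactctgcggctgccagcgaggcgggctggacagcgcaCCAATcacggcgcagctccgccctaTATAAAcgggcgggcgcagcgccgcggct

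H4C11 and H4C12 were nearly the same sequence: 295 of 300 aligned columns were identical over the window from 250 bases before to 50 bases after the start, 98.3%, beside a median of 50.6% over the 1128 pairs of histone promoters. The window of H2AC6 is also the promoter of the divergent H2BC4, whose start lies on the other strand inside the same anchor. Of the 53 genes, 48 had a promoter in the RefSeq table. CCAAT was found in 41 of these 48 (85.4%) and in 34.6% of all 35116 promoters of the table, and TATAAA in 31 (64.6%) beside 11.5%. By family, all 6 H1, 10 H2A, 14 H2B and 8 H3 promoters held CCAAT, and 3 of 10 H4 promoters did, while H4C11 and H4C12 held none. ATTTGCAT, a motif added after the data had been examined, was found in 20 of 48 (41.7%) beside 1.77%, in 8 of 10 H2A and 11 of 14 H2B promoters and in none of the H1 or H4 promoters. Divergent genes share their windows, so these counts repeat sites: the 20 promoters held 13 distinct octamers, of which 6 lay in the windows of several genes. For CCAAT, 28 of 82 distinct sites were likewise shared, and for TATAAA 9 of 37. The 1 H3 promoter that held the octamer was that of H3C4, whose RefSeq window was identical to that of H2AC7. That window is counted under both H2A and H3 for CCAAT too. The GENCODE start of H3C4, at chr6:26197286, lies outside it. A match is a run of letters and not a bound site.

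In mock-treated cells the histone promoters had 45 loops with 186 PETs, and after PDS treatment 7 loops with 25 PETs. The PDS/mock ratio was 0.156 (0.0715 to 0.338) for loops and 0.134 (0.0888 to 0.203) for PETs. For loops at all other protein-coding promoters the ratios were 0.255 (0.248 to 0.261; 30490 and 7761 loops) and 0.228 (0.225 to 0.231). The interval of the loop ratio at histone promoters held the value of the other promoters, and so did not tell them apart by loop number. The interval of the PET ratio lay below that value, although PETs of 1 loop enter a list together and are not independent. The PET ratio moved with the loops kept: it was 0.0833 with at least 4 PETs per loop (0.16 at other promoters), 0.0789 with at least 5 (0.115) and 0.0594 for loops of 20 kb or more (0.229). With at least 5 PETs its interval, 0.0352 to 0.177, held the value of the other promoters. With at least 4 PETs (0.0442 to 0.157) and for loops of 20 kb or more (0.0266 to 0.1325) the interval lay below that value. Divided by the PET total of its list, the histone PETs after PDS treatment were 0.511 (0.338 to 0.773) of those in mock-treated cells. This division was not made for the other promoters, whose PET ratio of 0.228 was also below that of all loops, 0.263.

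**Figure D1:**
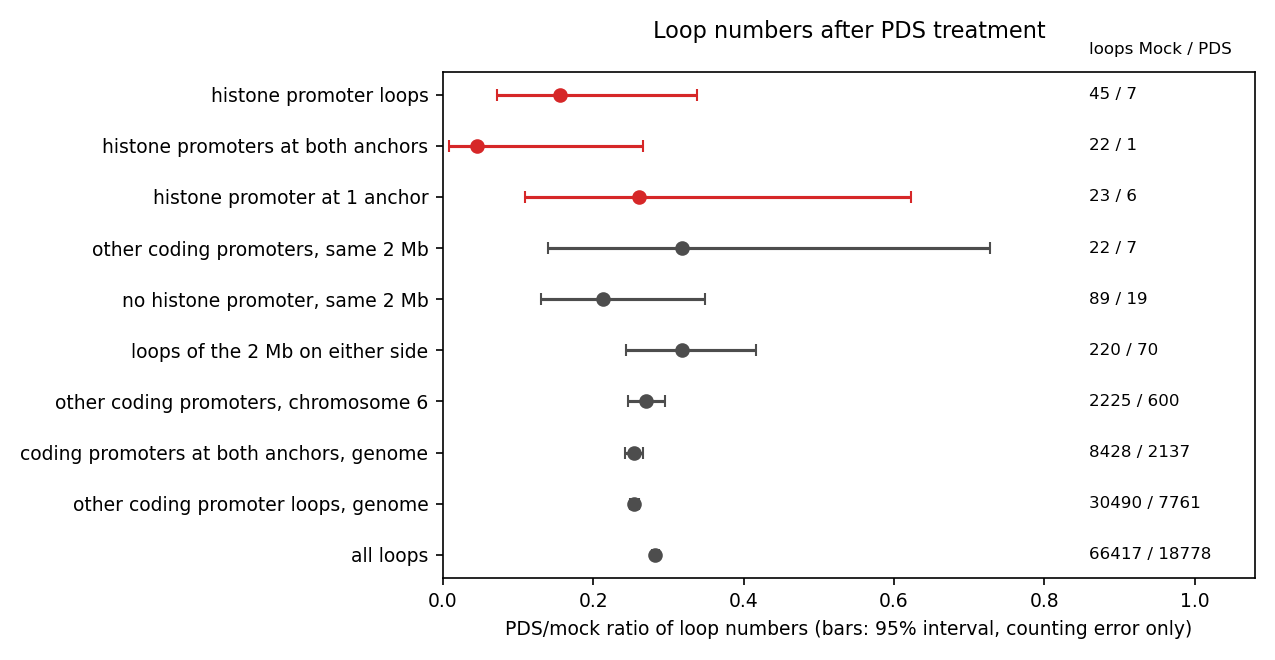
PDS/mock ratio of loop numbers (x axis) for sets of loops (y axis), with bars for the 95% interval from counting error; numbers on the right are loops in mock-treated and PDS-treated cells. Histone promoter loops (red) sit at 0.156, and those with histone promoters at both anchors at 0.0455, with intervals that reach 0.338 and 0.266.

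Nearby loops gave the local background. In the same 2 Mb, loops at the 17 other protein-coding genes went from 26 to 7 (ratio 0.269, 0.119 to 0.607). Of these, 4 mock loops belong to ENSG00000282988 and are histone promoter loops too, since it shares an anchor with H2AC7, and without them the numbers were 22 and 7 (0.318, 0.139 to 0.727). In the same window, all loops without a histone promoter went from 89 to 19 (0.213, 0.131 to 0.349). In the 2 Mb on either side, loops went from 220 to 70 (0.318, 0.243 to 0.416). The interval of the loop ratio at the histone promoters overlapped each of these. By PETs, the ratio in the same window was 0.185 (0.14 to 0.243) for all loops without a histone promoter. It was 0.247 (0.156 to 0.393) for loops at other protein-coding promoters only, and 0.285 (0.2465 to 0.329) on either side. The interval of the PET ratio at the histone promoters, 0.0888 to 0.203, held the first of these values and lay below the others. These differences were not tested.

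The loss of single loops was at the level of the whole list. Of the 45 mock loops at histone promoters, 40 were absent after PDS treatment, beside 89.0% of all mock loops, and 5 were listed in both (11.1%, 4.84 to 23.5). Of the 12 with at least 5 PETs, 10 were absent, beside 73.2% of all mock loops of that strength, and of the 2 with at least 8 PETs both were absent, beside 50.1%. At the shares of other loops with the same PET counts, 6.01 of the 45 would have been listed in both. Of the 7 PDS loops 2 were absent from the mock list, beside 60.9% of all PDS loops. Among the 5 shared loops 2 had fewer PETs after PDS treatment, 2 had the same number and 1 had more, beside 55.3% of all shared loops with fewer.

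The mock loops at histone promoters often joined histone genes to one another. Histone promoters were at both anchors of 22 of 45 mock loops (48.9%, 34.96 to 63.0). Of other protein-coding promoter loops, 27.6% had such promoters at both anchors. The histone genes lie close together, 32 within 268.6 kb and 16 within 86.4 kb. The share at other promoters does not allow for this density, and a preference for histone partners was not tested. After PDS treatment 1 of 7 loops was of this kind (14.3%, 2.57 to 51.3), beside 27.5% at other promoters. Histone–histone loops thus went from 22 with 98 PETs to 1 with 3 PETs, a ratio of 0.0455 (0.0078 to 0.266) for loops and 0.0306 (0.0103 to 0.0914) for PETs. Other loops with protein-coding promoters at both anchors went from 8428 to 2137, a ratio of 0.254 (0.242 to 0.266) for loops and 0.224 (0.218 to 0.23) for PETs. Loops with a histone promoter at 1 anchor went from 23 with 88 PETs to 6 with 22 PETs, a ratio of 0.261 (0.109 to 0.623) for loops.

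Absent histone–histone loops numbered 21 of 22, beside 87.7% of all mock loops with protein-coding promoters at both anchors. At the shares of other promoter–promoter loops with the same PET counts, 3.37 of the 22 would have been listed in both. The upper end of the interval of the loop ratio, 0.266, reached the ratio of the other promoter–promoter loops, 0.254. If the minimum of 3 PETs was the only rule for listing, each of the 21 absent loops had at most 2 PETs. The PETs of the 22 loops after PDS treatment would then lie between 3 and 45, a ratio of 0.0306 to 0.459. For the other promoter–promoter loops of the mock list the same limits were 0.116 and 0.557. The split by the number of histone anchors was therefore given as a description.

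**Figure D2:**
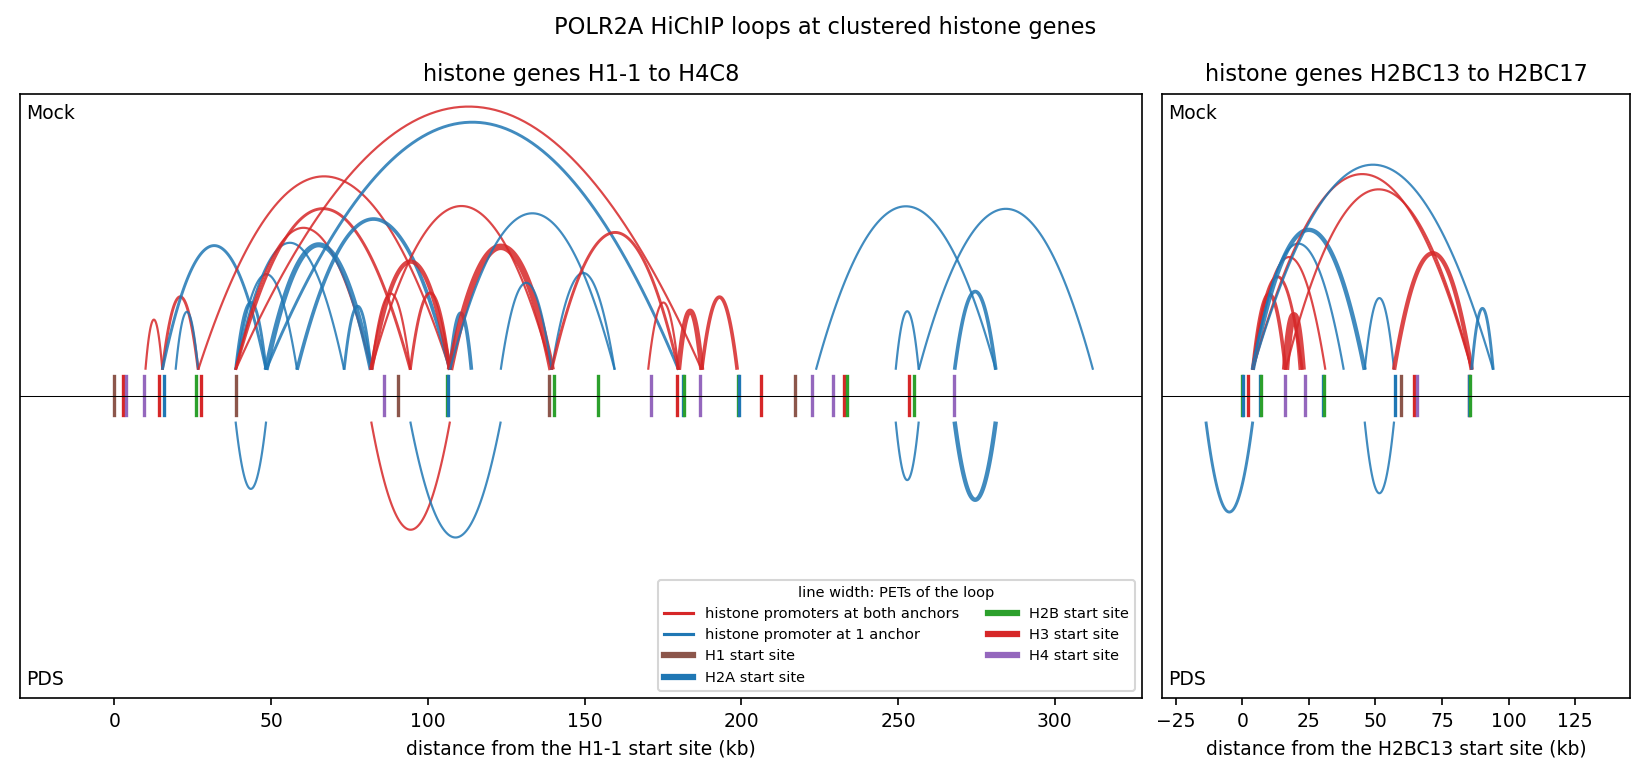
Loops at the 2 stretches of histone genes that had any, with the distance from the start site of H1-1 (left) or H2BC13 (right) on the x axis in kb; arcs above the line are mock loops and arcs below it PDS loops, arc height has no unit, line width grows with PETs, and coloured ticks are start sites by family. Red arcs, with histone promoters at both anchors, are 22 above and 1 below; 1 mock loop of 717 kb runs off the right panel and is not drawn.

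In the larger stretch, the anchor of H2AC6 and H2BC4 (chr6:26122004-26127715) had the most PETs of any histone anchor, 35 in 7 mock loops and 3 in 1 loop after PDS treatment. Its loop to the anchor of H1-4 and H2BC5 (chr6:26154910-26159695), 32.4 kb away, had 9 PETs in mock-treated cells and was not listed after PDS treatment. Its loop to H4C3 (chr6:26093049-26106441), 25.1 kb away, had 6 PETs and then 3, and this was the only histone–histone loop in both lists. Its 2 loops of 5 PETs, to anchors without a protein-coding promoter at chr6:26070587-26081579 and chr6:26128760-26134660, were not listed after PDS treatment. The 2 genes make H2A and H2B from a shared promoter region, and since 1 anchor covers both, their loops cannot be told apart.

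Most loops of the neighbouring anchors were also not listed after PDS treatment. H4C3 had 26 PETs in 6 mock loops and 3 PETs in 1 loop after PDS treatment, and its strongest loop, of 7 PETs, ran 33.5 kb to chr6:26063152-26069272 and was not listed after PDS treatment. The H4C3 anchor also overlaps the gene body of HFE, a regulator of iron uptake. H1-4 and H2BC5 went from 22 PETs in 5 loops to none listed. H1-2, a linker histone gene, went from 20 PETs in 6 loops to 3 PETs in 1 loop, which joined it to chr6:26063152-26069272 with 4 PETs in mock-treated cells. The anchor of H2AC7, H2BC7 and H3C4 (chr6:26194802-26200770, which also holds the start of ENSG00000282988) had 18 PETs in 4 mock loops, among them 7 PETs to H4C5 (chr6:26201988-26208359), and none listed after PDS treatment. H4C5 had 15 PETs in 3 mock loops, of which 5 joined it to the divergent pair H2AC8 and H2BC8, and none listed after PDS treatment.

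H4C8, an H4 gene at the end of this stretch, had about as many PETs in both conditions. Its only loop, from chr6:26284228-26287465 to chr6:26290413-26307536 over 13.1 kb, had 5 PETs in mock-treated cells and 6 after PDS treatment. It was the only histone promoter loop with more PETs after PDS treatment than before among those in both lists, and the only one with at least 5 PETs after PDS treatment. Counts of 5 and 6 differ by less than counting error.

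In the stretch from H2BC13 to H2BC17, the strongest loop of all histone promoters joined H4C11 (chr6:27821026-27827350) to H4C12 (chr6:27828250-27832660), the near-identical promoters printed above, over 6.3 kb. This loop held 10 PETs before treatment and was not listed after PDS treatment. H4C11 had 18 PETs in 3 mock loops and H4C12 had 14 in 2, with none listed for either after PDS treatment. Because both genes share sequence, the share of 31-base words with more than 1 copy anywhere in the reference was computed. It was 28.9% over both anchors of this loop. The median was 9.13% over the 21 histone promoter anchors and 6.86% over 1171 other protein-coding promoter anchors of chromosome 6. These copies need not lie in the other anchor of the loop. Of the words of the H4C11 anchor 7.66% were found in the H4C12 anchor, and 11% the other way round. The part of repeated sequence in the PETs of this loop was not tested. Without this loop the PDS/mock ratio was 0.159 for all histone loops and 0.0476 for histone–histone loops.

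The other anchors of this stretch held several genes each. The anchor with H2AC13, H2AC14, H2BC13, H2BC14 and H3C10 (chr6:27806022-27817731) had 27 PETs in 7 mock loops, of which 6 PETs ran to chr6:27850312-27857500 and 5 to H4C11. Those loops were not listed after PDS treatment, and the anchor instead had 1 loop, of 4 PETs, to chr6:27791380-27797223, which was not in the mock list. The anchor of H2AC17, H2BC17 and H3C12 (chr6:27892131-27896017) had 20 PETs in 5 mock loops, among them 6 PETs to H1-5 and H2AC16 (chr6:27861617-27868253), and none listed after PDS treatment. The other loop seen after PDS treatment alone joined H1-6, a linker histone gene known for expression in testis, to chr6:26138088-26144030 with 3 PETs.

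**Figure D3:**
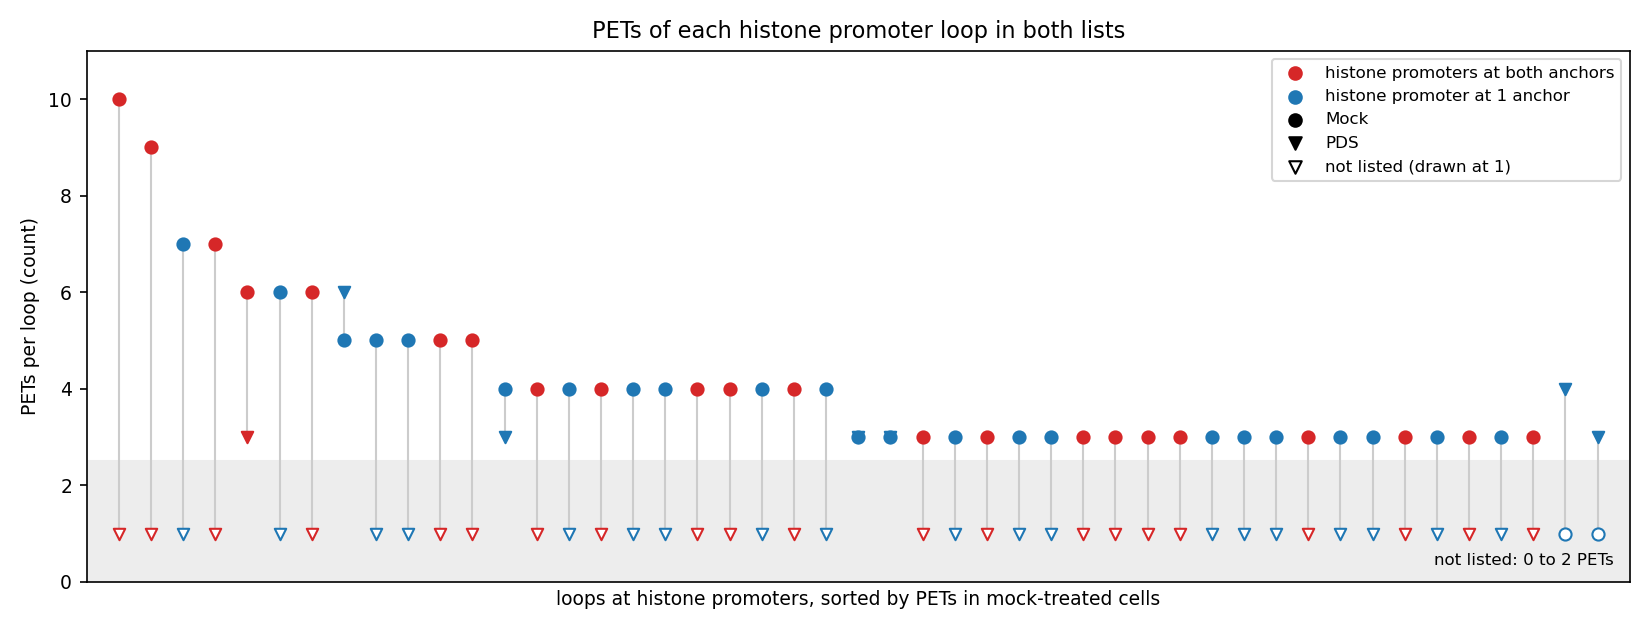
PETs per loop (y axis) for each of the 47 histone promoter loops (x axis, sorted by PETs in mock-treated cells); circles are mock-treated and triangles PDS-treated cells, red for histone promoters at both anchors, and open symbols drawn at 1 in the grey band mark loops not listed, with up to 2 PETs. The 2 loops with 10 and 9 PETs have no listed counterpart, and filled triangles stand over 5 of the 45 mock loops.

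Most of these loops had few PETs, as did most loops of the list. Of the 45 mock loops, 33 had 3 or 4 PETs (73.3%), beside 79.8% of other protein-coding promoter loops and 81.6% of all loops, so that single loops were known with little precision. The mean was 4.13 PETs per mock loop, beside 3.86 and 3.83. Distances between anchor midpoints ran from 5392 to 717271 bp with a median of 27271 bp, beside 19931.5 bp for other protein-coding promoter loops and 17418 bp for all loops, and 42 of the 45 were under 100 kb. The H2BC11 to H2AC12 stretch had no loop in either list. Between stretches there was 1 mock loop, of 4 PETs, from chr6:27174382-27179223, near the H2BC11 to H2AC12 stretch, to the anchor of H2AC17, H2BC17 and H3C12, and no PDS loop. No loop in either list joined histone promoters of different stretches. Apart from ENSG00000282988 in the anchor of H2AC7, no anchor of a histone promoter loop held the start site of a non-histone protein-coding gene. Genes for tRNA lay in 5 of the 15 partner anchors and in 1 of the 21 histone promoter anchors. Their share over other anchors was not computed.

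By gene, 37 of 53 had a mock loop (69.8%), beside 59.9% of all protein-coding genes, and 15 had a PDS loop (28.3%), beside 28.7%. Of the 37 genes with a mock loop 22 had none listed after PDS treatment, beside 56.4% of all genes with a mock loop, so the count by gene was close to the background. These genes are not independent, since 11 of the 21 histone promoter anchors held several histone genes and a gene takes all loops of its anchor. The 16 genes without a loop in either list were H1-1, H1-3, H2BC6, H2BC9, H3C1, H3C6, H3C7, H3C11, H4C1, H4C7 and H4C13, and all 5 of the H2BC11 to H2AC12 stretch (H2BC11, H2AC11, H4C9, H2BC12 and H2AC12). The genes with the most PETs after PDS treatment were H4C8 with 6 and the 5 genes of the anchor of H2BC13 with 4, and the other 9 genes with a PDS loop (H1-2, H1-5, H1-6, H2AC6, H2AC16, H2BC4, H2BC10, H3C8 and H4C3) had 3 each. H3C8 and H2BC10 kept a loop of 3 PETs, as did H1-5 and H2AC16.

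All 5 families had fewer loops after PDS treatment. The linker histone H1 genes went from 15 loops to 3 (4 of 6 genes with a mock loop). The H2A genes went from 27 to 3 (9 of 11 genes), and the H2B genes from 30 to 3 (10 of 14). The H3 genes went from 22 to 2 (6 of 10), and the H4 genes from 17 to 2 (8 of 12). The intervals of the 5 PDS/mock ratios overlapped, and a loop whose anchors hold several families counts for each. Of the 22 histone–histone mock loops, 13 joined anchors with no family in common and 9 joined anchors that shared a family, the H4C11 to H4C12 loop among them.

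**Figure D4:**
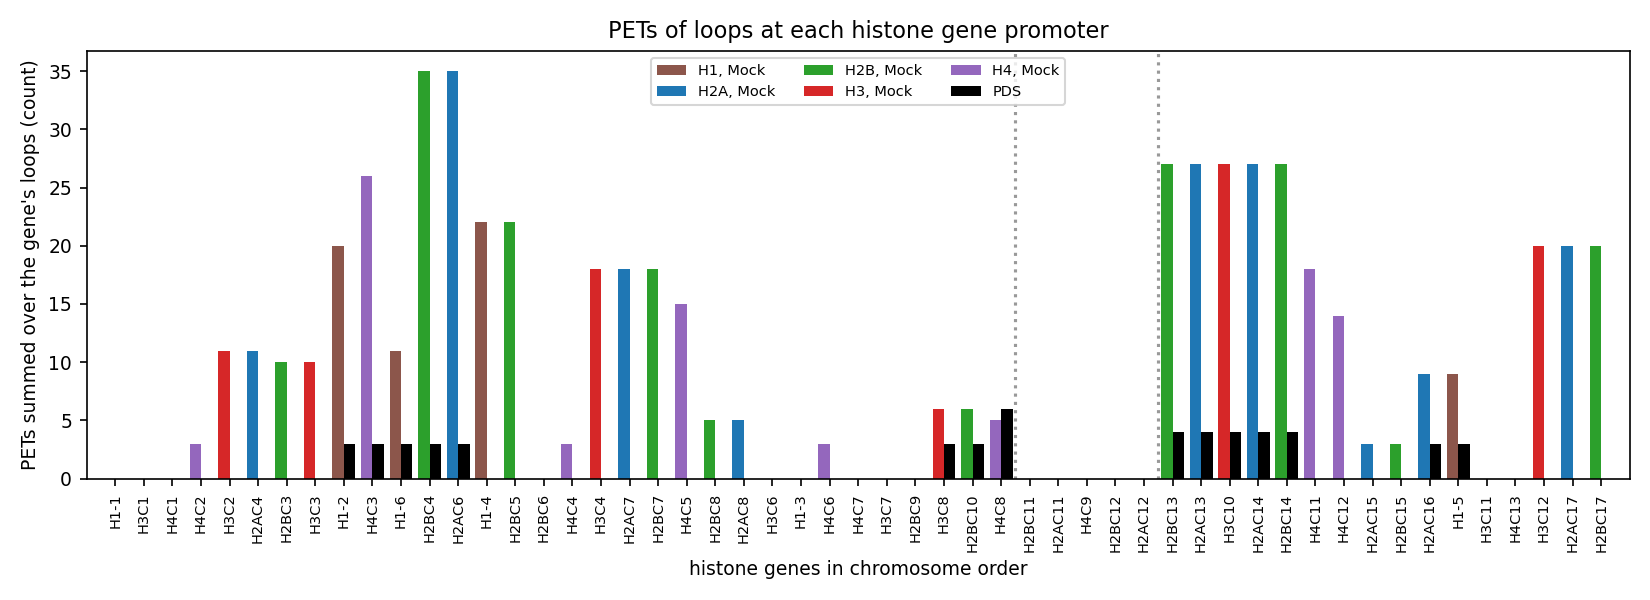
PETs summed over the loops of each of the 53 histone genes (y axis) in chromosome order (x axis); coloured bars are mock-treated cells by family, black bars PDS-treated cells, and dotted lines part the 3 stretches. Neighbouring bars of equal height are genes of 1 anchor, such as H2BC4 and H2AC6 at 35 PETs, and H4C8 alone has more PETs after PDS treatment (6) than before (5).

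Since PDS binds G4, the reference sequence was searched for predicted G4 motifs, defined as 4 runs of 3 or more G parted by 1 to 7 bases on the same strand, with both strands searched. A motif within 1 kb of a start site was found for 10 of 53 histone genes (18.9%) and for 76.7% of protein-coding genes. With only the canonical transcript of each gene, which equalises the window searched, the shares were 18.9% and 68.6%. The 10 genes were H1-1, H1-2, H1-3, H1-6, H2AC4, H2BC6, H3C7, H4C1, H4C6 and H4C8. Of these 10, 5 had a mock loop, beside 37 of all 53 histone genes (69.8%), and 3 (H1-2, H1-6 and H4C8) also had a PDS loop, beside 15 of 53 (28.3%). H2AC4 went from 3 loops to 0, H4C6 from 1 to 0 and H1-2 from 6 to 1. The H4C8 loop had 5 PETs in mock-treated cells and 6 after PDS treatment, which differ by less than counting error. H4C8 carries the motif across its GENCODE start site, at chr6:26285631-26285653 on the minus strand, shown with its runs of G in capitals.
H4C8 G4 motif: GGGctGGGctatgcGGGGtGGGG

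Anchors are wider than promoters and held more motifs. A motif lay in at least 1 anchor of 36 of the 45 mock loops at histone promoters (80%, 66.2 to 89.1) and of 83.2% of the other protein-coding promoter loops. The 36 loops went to 5 after PDS treatment (ratio 0.139, 0.0562 to 0.343), and the 9 without a motif in either anchor to 2 (0.222, 0.0541 to 0.912). These intervals overlap. At other protein-coding promoters the ratios were 0.254 with a motif and 0.256 without one. Both anchors of the H4C11 to H4C12 loop held a motif, as did both of the H4C8 loop, which was listed in both conditions. A motif in the reference sequence is not a measured G4.

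**Figure D5:**
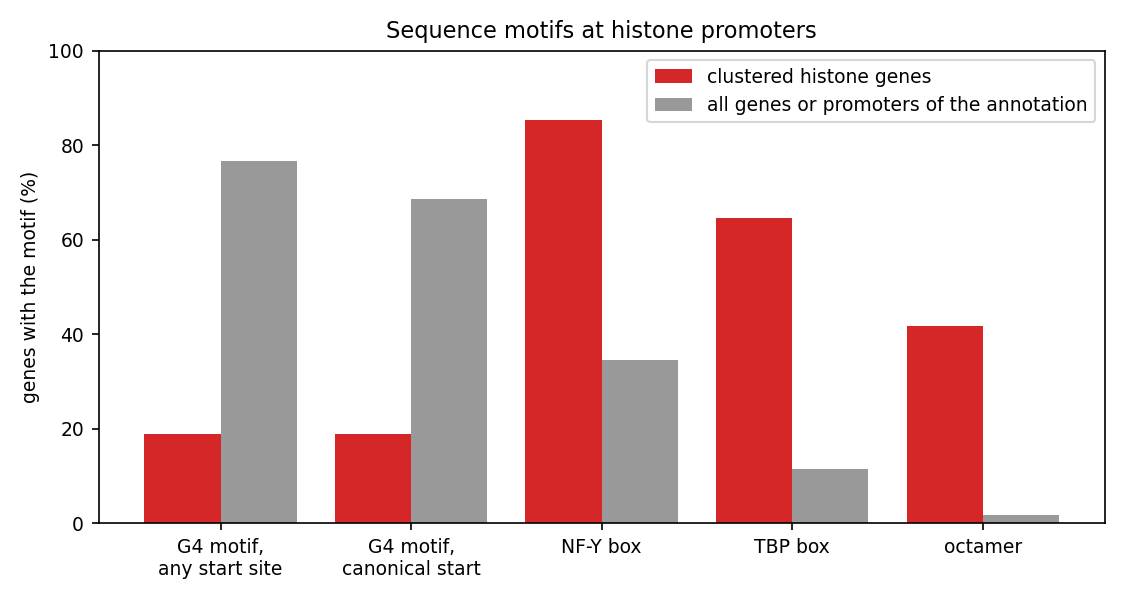
Share of genes or promoters with a sequence motif (y axis, %) for the clustered histone genes (red) and for all genes or promoters of the annotation (grey): predicted G4 motifs within 1 kb of any start site or of the canonical one, and the boxes for NF-Y and TBP (TATA box) and the octamer in RefSeq promoters. G4 motifs are found at 18.9% of histone genes beside 76.7% of protein-coding genes, and the NF-Y box at 85.4% beside 34.6%.

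Genes of the same pathway elsewhere in the genome were read from lists. Of 12 factors of histone gene expression, 8 had a mock loop (66.7%, beside 59.9% of all protein-coding genes) and 4 a PDS loop (33.3%, beside 28.7%), shares close to the background. Their loops went from 15 to 5 (ratio 0.333, 0.126 to 0.882). NPAT, the scaffold of the histone locus body, had 7 PETs in 2 mock loops and none listed after PDS treatment. CASP8AP2, another component of that body, and SLBP, which binds the stem-loop of histone mRNA, each had 6 PETs in mock-treated cells and 3 after PDS treatment. E2F1, a transcription factor of S-phase entry, went from 17 PETs to 3, and ERI1, a nuclease that acts on histone mRNA ends, from 11 to 7. CCNE1, POU2F1 and HINFP had 4, 4 and 3 PETs in mock-treated cells and none listed after PDS treatment, and CDK2, LSM10, LSM11 and ZNF473 had no loop in either list.

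The 17 replication-dependent histone genes outside the 3 stretches had 3 loops with 12 PETs in mock-treated cells, and none after PDS treatment. The mock loops lay at 6 of the 17 genes (35.3%, beside 59.9% of all protein-coding genes). H4C16 had 5 PETs, H2AC25 and H2BC26 shared a loop of 4, and H2AC20, H2AC21 and H2BC21 shared one of 3. The 10 genes listed as replication-independent variants all had a mock loop, beside 59.9% of all protein-coding genes. Of these 10 genes, 7 had a PDS loop (70%, beside 28.7%). Loops of the variants went from 28 to 10 (ratio 0.357, 0.176 to 0.724). H3-3B, which encodes H3.3, went from 26 PETs to 3, while H2AZ1, which encodes H2A.Z, had 7 PETs in both lists and H1-10, a linker histone variant, 6 and 8. The interval of the variants overlapped that of the clustered genes, 0.0715 to 0.338, and the difference was not tested.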

How the data were processed

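POLR2A HiChIP-seq libraries of mock-treated and PDS-treated HepG2 cells (2 replicates each) were deposited as 1 loop list per condition, with whole-number PET counts per loop and no scaling by the authors. The submitters' processing notes name HiC-Pro 3.1.0 and GRCh38. The program that called loops and the way replicates were joined are not given in the sources used here. The lists hold loops of at least 3 PETs, and library depth is unknown.

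Loops were assigned to genes with GENCODE release 44 (anchor within 1 kb of a start site). Anchors of the lists do not overlap one another, and a shared loop has both anchors overlapping by at least 1 bp. Intervals are 95% Wilson intervals (scipy 1.17.1) and cover counting error only. Promoters came from the RefSeq table of GRCh38.p14 and were aligned with Biopython 1.88. Motifs and 31-base words were searched in the reference genome with pysam 0.24.0. Scripts were tested on simulated data.

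The members and lists were chosen with earlier results of these data known. Values in full were given for the 12 genes with most mock PETs and the 12 with most PDS PETs, and for the 10 loops with most mock PETs (ties included), loops of at least 5 PETs after PDS treatment, and mock loops of at least 8 PETs absent after it. The blood cell marker list is not reported here.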

Additional observations from a re-analysis of the deposited data

How the results depend on the processing

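Over 39 recomputed values, 30 stayed within the 95% interval of the value given (counts within 1.5 times) and 9 moved. Some outcomes were fixed in advance, so this tally does not measure robustness. Anchors do not overlap, so asking for identical anchors could not change the shared loops. Leaving out the H4C11 to H4C12 loop, which was not shared, could not do so either. The between-stretch ratio rested on 1 mock loop, and division by the list totals only multiplied the PET ratio by a constant. The loop ratio at histone promoters ran from 0.08 to 0.159 over 7 alternatives. The PET ratio was 0.0833 with at least 4 PETs, 0.0789 with at least 5, 0.0594 for distances of 20 kb or more, and 0.511 after division by the list totals. Chosen after seeing the data, the histone–histone loop ratio was 0 with at least 4 PETs (12 and 0 loops) and 0 with at least 5 (7 and 0), and up to 0.0833 otherwise. Shared loops numbered 1 when both lists were held to at least 5 PETs and 8 with anchors extended by 5 kb. Runs of at least 2 G gave G4 motifs for all 53 genes, beside 99.6% of protein-coding genes. No between-stretch loop had 5 PETs, so that alternative gave no value. Low PET counts and the minimum of 3 limit every single-loop statement, and the PDS list holds too few histone loops to set its composition apart from that of other promoters. No paired analysis was possible because the replicates of each condition were combined into 1 list, which also kept any replicate from being left out.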
